A study of Mus musculus with 16 samples.

Results

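Described here are 10 genes, led by the uroplakin genes Upk3b and Upk1b, of 24544 genes in the table of polyA RNA. They were put forward as mesothelial and urothelial genes, although 5 of them are on the mesothelial marker list used below and 2 on the urothelial one. Of these, 8 (Upk3b, Upk1b, Cdh3, Myrf, Gpm6a, Vnn1, Tenm3 and Lphn2) were selected on their high FPKM in BFC012 cells, and 2 (Msln and Wt1) were added as standard mesothelial markers. Their values in the BFC012 cells are therefore a description and support nothing. AFT024 and BFC012 are stromal lines that were derived from fetal liver of C57BL/6 mice at 14.5 dpc (embryonic age after mating), and each is a single line. AFT024 is labelled supportive of hematopoietic stem and progenitor cells and BFC012 non-supportive, and with 1 line of each kind this property cannot be told apart from other differences between the lines. The study sequenced both lines and the exosomes they secrete, which are small membrane vesicles, as polyA RNA and as small RNA. The 4 groups used here are the polyA RNA of AFT024 cells, BFC012 cells, AFT024 exosomes and BFC012 exosomes, with 2 samples each in the labels, which name no treatment. The exosome replicates are technical, since pooled exosome RNA was split before sequencing.

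Each group has 1 merged value in the deposited tables, so differences carry no estimate of replicate spread and were given no p-value. The groups held 39385534, 35874383, 9038471 and 16344350 reads in the order AFT024 cells, BFC012 cells, AFT024 exosomes and BFC012 exosomes, and values are given in this order throughout. The level of a gene is given in FPKM (sequenced fragments scaled to transcript length and to library size), beside its whole number of reads. A read ratio between groups was scaled by median-of-ratios size factors and has an exact Clopper-Pearson interval at 95% that covers counting error only. A fold against a group with 0 reads is a bound, with 3 reads put in place of the 0. A gene was counted as higher or lower at 2-fold or more on the log2(FPKM + 1) scale.

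The mesothelium is the flat epithelial sheet that covers the liver and the other organs of the body cavities. Its cells make Wt1, a zinc finger transcription factor, and mesothelin (Msln), a surface protein held by a lipid anchor, and fetal liver mesothelium is known to give rise to mesenchymal cells beneath it. Uroplakins are membrane proteins that form rigid plaques on the bladder surface: Upk1b is a tetraspanin that pairs with a type 3 uroplakin such as Upk3b. Both of these uroplakins are also known from mesothelium, while Upk2 and Upk3a are markers of urothelium.

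The other chosen genes encode membrane or membrane-bound proteins. Cdh3 is P-cadherin, a calcium-dependent adhesion protein of epithelia. Myrf is a transcription factor made as a membrane protein that cleaves itself to release its nuclear part. Gpm6a is a membrane glycoprotein of the proteolipid family, best known from neurons. Tenm3 is a teneurin, a large adhesion protein, and Lphn2 (latrophilin 2, now named Adgrl2) is an adhesion receptor coupled to G proteins whose family binds teneurins. Vnn1 is a pantetheinase, which splits pantetheine into vitamin B5 and cysteamine on the way of coenzyme A breakdown.

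All 10 genes are annotated as protein-coding and lie on 8 chromosomes of mm10. Cdh3 (chr8:106510913-106556908), Gpm6a (chr8:54954728-55060877) and Tenm3 (chr8:48227682-48844026) share chromosome 8 but are not neighbours. Upk3b is at chr5:136038496-136045303, Upk1b at chr16:38773184-38800203, Myrf at chr19:10208272-10240748 and Vnn1 at chr10:23894688-23905343. Lphn2 is at chr3:148815586-148989316, Msln at chr17:25748614-25754327 and Wt1 at chr2:105126529-105173616. Reads are given per gene, from a library kit that does not mark strand, and how overlapping genes were counted is not stated. Tenm3 overlaps Gm19744 on the opposite strand, which had 2, 305, 0 and 20 reads, so any reads in their overlap cannot be told apart by strand.

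Promoter windows from RefSeq (build GRCm38.p6, 300 bases each) matched 4 of the 10 genes, Upk3b, Gpm6a, Tenm3 and Lphn2. Only the windows of Upk3b and Gpm6a shown here lay at the start of the deposited gene. Each is printed as the 250 bases before the start site. They are chr5:136038246-136038495 (plus strand) for Upk3b and chr8:54954478-54954727 (plus strand) for Gpm6a, and capitals mark the motif matches named below.
Upk3b: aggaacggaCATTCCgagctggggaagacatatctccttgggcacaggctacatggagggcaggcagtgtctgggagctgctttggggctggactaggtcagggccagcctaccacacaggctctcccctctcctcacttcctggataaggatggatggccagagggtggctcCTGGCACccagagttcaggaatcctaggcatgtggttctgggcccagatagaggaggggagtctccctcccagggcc
Gpm6a: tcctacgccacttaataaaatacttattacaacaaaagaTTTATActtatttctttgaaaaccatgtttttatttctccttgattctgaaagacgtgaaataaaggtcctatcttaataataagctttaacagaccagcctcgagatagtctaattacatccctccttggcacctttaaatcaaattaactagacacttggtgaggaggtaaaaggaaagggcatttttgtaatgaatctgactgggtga
Both strands of the full 300 bases were searched for 6 motifs, and each share below is of 32817 promoters. A Myrf-type run, CTGGCAC, began 77 bases before the start of Upk3b and is held by 5.01% of promoters. The Tead-type run GGAATG lay on the other strand of the Upk3b window, beginning 241 bases before the start, and is held by 14.7%. The same run was found once in the window at another start of Gpm6a and once in that of Tenm3. The Gpm6a window shown above had only the TATA box letters TATAAA, on the other strand and 211 bases before the start, which 13.6% of promoters hold, as did the window of Lphn2. The remaining motifs were in no window of these genes. They were the Egr and Wt1 type GCGGGGGCG, held by 2.91% of promoters, a second Myrf type (CTGGTAC, which 2.24% hold) and the Gata type AGATAA with 11.2%. A match is a run of letters and not a site shown to be bound.

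In the cells, the 8 chosen genes were at 30.5 to 138.9 FPKM in BFC012 and at 0 to 0.094 FPKM in AFT024. Upk3b stood highest of the 10, at 0.048, 138.9, 0.087 and 20.9 FPKM, from 5, 13308, 4 and 1286 reads. Its level in BFC012 cells exceeded that of 93.4% of the 14969 genes that reached 1 FPKM in a group. Its partner type Upk1b was at 0, 47.3, 0.060 and 12.5 FPKM, from 0, 3346, 2 and 570 reads. Both uroplakins were thus high in both BFC012 groups and at a handful of reads in both AFT024 groups.

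Cdh3 was the second highest in BFC012 cells, at 0.082, 63.1, 0.012 and 2.56 FPKM, from 15, 10627, 1 and 275 reads. The transcription factor gene Myrf was at 0.094, 53.9, 0.057 and 9.27 FPKM, from 22, 13180, 4 and 1444 reads. Gpm6a was at 0.033, 30.5, 0.030 and 1.04 FPKM, from 5, 4263, 2 and 92 reads. All 3 were far lower in BFC012 exosomes than in the cells, and lower still in AFT024.

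The teneurin gene Tenm3 was at 0.048, 47.8, 0.065 and 16.3 FPKM, from 7, 17349, 7 and 3575 reads. Lphn2 was at 0.064, 32.8, 0.024 and 7.24 FPKM, from 16, 8574, 1 and 713 reads. Vnn1 was at 0.019, 35.8, 0 and 2.35 FPKM, from 2, 3556, 0 and 149 reads. Tenm3 and Lphn2 were both chosen for a high level in BFC012 cells, so nothing is read from their being high in the same line. Of these genes, Tenm3 kept the largest level in BFC012 exosomes.

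Of the 2 standard markers, Wt1 had the pattern of the chosen genes, at 0, 13.9, 0.064 and 4.42 FPKM, from 0, 1226, 1 and 276 reads. Msln did not. It was at 38.5, 17.0, 13.0 and 0.512 FPKM, from 3699, 1467, 535 and 29 reads. Msln was the highest of the 10 genes in AFT024 cells and AFT024 exosomes, ninth in BFC012 cells and the lowest in BFC012 exosomes.

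**Figure D1:**
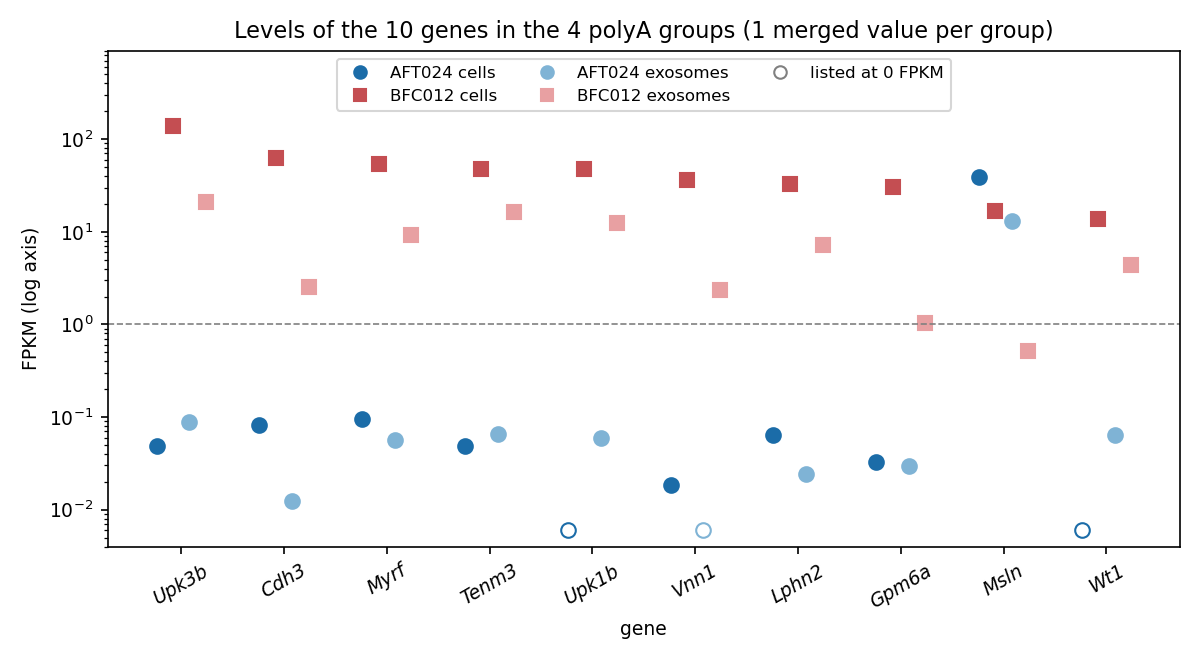
FPKM (log axis) of each of the 10 genes in AFT024 cells and exosomes (circles) and BFC012 cells and exosomes (squares), 1 merged value per group, with open circles for genes listed at 0 FPKM and a dashed line at 1 FPKM. In 9 genes both squares lie at 1.04 FPKM or more and both circles at 0.094 FPKM or less, while Msln is higher in AFT024 in cells and in exosomes.

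Between the cells, 9 of the 10 genes were higher in BFC012 and Msln was lower, where 5.95% of all 14969 genes were higher and 7.54% lower. The rule chose 8 of the 10 on BFC012 cells, so nothing is read from the first count. The read ratio of BFC012 to AFT024 cells was 2859 for Upk3b (1225 to 8808), 2663 for Tenm3 (1292 to 6624) and 1910 for Vnn1 (528.4 to 15779). It was 916.0 for Gpm6a, 761.1 for Cdh3, 643.6 for Myrf and 575.7 for Lphn2, and at least 1198-fold higher for Upk1b and at least 439.0-fold higher for Wt1, both at 0 reads in AFT024 cells. Msln was 2.35-fold higher in AFT024 cells (2.21 to 2.50). In bulk RNA, fewer cells with a transcript and less of it per cell cannot be told apart.

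The exosome groups were not used to choose the genes. There, 8 of the 10 genes were higher in BFC012 than in AFT024 (Gpm6a was just short, at a log2 difference of 0.98) and Msln was lower. With a pseudocount of 0.1 FPKM or with reads, Gpm6a passed too. Of all genes, 15.0% were higher and 7.14% lower, and the median of the 10 genes was 2.68 on the log2(FPKM + 1) scale against 0.23 for all genes. Exosomes come from the cells, so these ratios share their source with the choice.

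The uroplakins were 184.0-fold (71.7 to 676.2, Upk3b) and 163.1-fold (44.9 to 1350, Upk1b) higher in BFC012 exosomes by reads. The read ratio was 292.2 (141.7 to 727.4) for Tenm3, 408.0 (73.0 to 16137) for Lphn2, 206.6 (80.5 to 759.2) for Myrf and 157.9 (28.1 to 6260) for Wt1. Cdh3 was at 157.4 (28.0 to 6238) and Gpm6a at 26.3 (7.08 to 220.6), from 92 reads against 2. Vnn1, with 0 reads in AFT024 exosomes, was at least 28.4-fold higher. The wide intervals come from 1 to 7 reads in AFT024 exosomes, and every lower limit lay above 1.

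Msln ran the other way, with 535 reads in AFT024 exosomes and 29 in BFC012 exosomes. It was 32.2-fold higher in AFT024 exosomes (22.2 to 48.6), against 2.35-fold in the cells. In AFT024 exosomes Msln was at a higher level than 76.1% of all genes, and in BFC012 exosomes than 13.3%.

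The line ratio was smaller in exosomes than in cells for 9 of the 10 genes, with 0 reads set to the floor of 3. The cell ratio holds the BFC012 level on which most of the genes were chosen, which favours a smaller ratio in exosomes. The share of all genes with a smaller ratio is not given here, so nothing is read from the count. For Upk3b, Gpm6a and Tenm3 the counting intervals of both ratios lay apart. For Upk1b, Cdh3, Myrf, Vnn1, Lphn2 and Wt1 they overlapped. Overlap does not show that the ratios were equal, and their difference was not tested. Msln was the exception, with a larger ratio in exosomes and intervals apart.

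**Figure D2:**
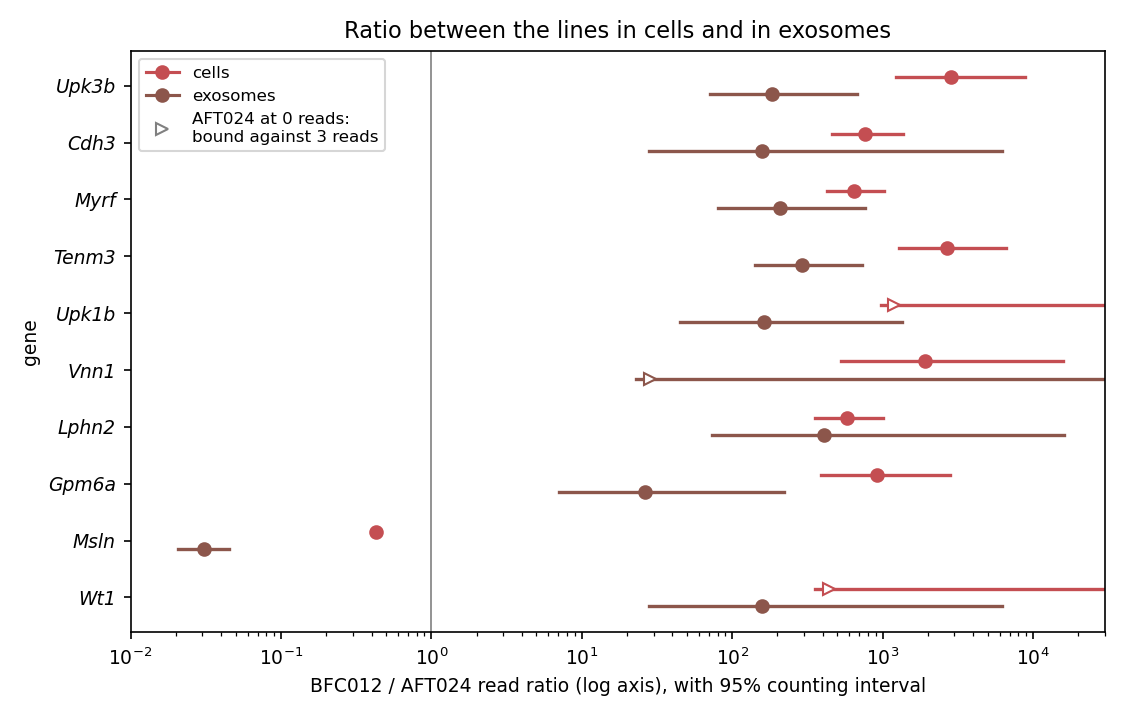
Read ratio of BFC012 to AFT024 (log axis) in cells and in exosomes, with 95% counting intervals as bars and open triangles where AFT024 had 0 reads and the point is a bound. The 9 genes other than Msln lie to the right of 1 in both, and Msln lies to the left, at 0.426 in cells and 0.031 in exosomes.

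The few AFT024 reads of the 9 genes other than Msln added up to 72 in cells against 75429 in BFC012 cells, and to 22 in exosomes against 8380. At equal library size this was 0.087% of the BFC012 level in cells and 0.475% in exosomes. Gene by gene it was 0.254% to 0.657% in exosomes for 7 of the 9, with Gpm6a at 3.93% and Vnn1 at 0. The source of these reads was not tested. Of the 9 genes, 6 were at or under 3 reads in AFT024 exosomes and 3 in AFT024 cells.

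Within BFC012, the genes differed widely in how much of their cell level was found in exosomes. All 10 were lower in exosomes, by 1.45 to 4.17 on the log2(FPKM + 1) scale. In the same comparison 44.5% of all genes were lower and 8.22% higher, and the median gene fell by 0.80. Relative to the median gene 8 of 10 were lower by 2-fold, all but Tenm3 and Wt1, where 22.8% of all genes were. With FPKM scaled by median-of-ratios 7 of 10 were, without Upk1b as well, where 23.8% of all genes were. Because 8 of the genes were chosen for a high level in these cells, the count and its direction are a description.

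By reads, Wt1 kept the most, with an exosome-to-cell ratio of 0.700 (0.612 to 0.798), beside Tenm3 at 0.640 (0.618 to 0.664). Their intervals overlapped. Upk1b followed at 0.529 (0.484 to 0.579), above its partner type Upk3b at 0.300 (0.283 to 0.318). The 2 uroplakin transcripts, both high in the cells, thus differed in this ratio beyond counting error.

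Myrf was at 0.340 (0.322 to 0.359) and Lphn2 at 0.258 (0.239 to 0.279), so the latrophilin ratio lay below that of the teneurin. Vnn1 was at 0.130 (0.110 to 0.153). Lowest were Cdh3 at 0.080 (0.071 to 0.091), Gpm6a at 0.067 (0.054 to 0.082) and Msln at 0.061 (0.041 to 0.089), whose intervals overlapped. Among 11280 genes with at least 20 reads in both groups together the median ratio was 0.912, and these last 3 lay above only 1.49%, 1.13% and 0.993% of them. Wt1 and Tenm3 lay above 39.6% and 36.1%.

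Across the 10 genes the rank correlation of the exosome-to-cell ratio with FPKM in BFC012 cells was 0.12. With the transcript length implied by reads and FPKM it was 0.067, over points that share the same 2 libraries. The level in BFC012 cells is also the denominator of the ratio, and most of the genes were chosen on it, so nothing is read from these coefficients. That implied length was larger in exosomes by a median of 1.40 times over all genes, and by 1.33 to 1.55 times in 9 of the 10. For Lphn2 it was 0.827 times that in cells, so FPKM and reads give its exosome level differently from the other genes.

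In AFT024, only Msln had enough reads for a firm ratio of exosomes to cells, 0.844 (0.769 to 0.924), above 50.8% of 11323 genes. On the log2(FPKM + 1) scale it was lower by 2-fold (-1.50), as were 53.5% of all genes, while 7.71% were higher and the median gene fell by 1.11. With FPKM scaled by median-of-ratios, or by reads, Msln did not pass 2-fold. The same transcript was at 0.061 in BFC012, a 13.7-fold difference between the lines with intervals far apart. Tenm3, with 7 reads in each AFT024 group, had a ratio of 5.83 (1.75 to 19.5). Those of Upk3b (4.67), Gpm6a (2.33), Myrf (1.06), Cdh3 (0.389) and Lphn2 (0.365) rested on 1 to 4 exosome reads and had intervals that include 1. Upk1b, Vnn1 and Wt1 had 2 reads or fewer in both groups and no ratio was computed. The AFT024 and BFC012 ratios share no library.

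**Figure D3:**
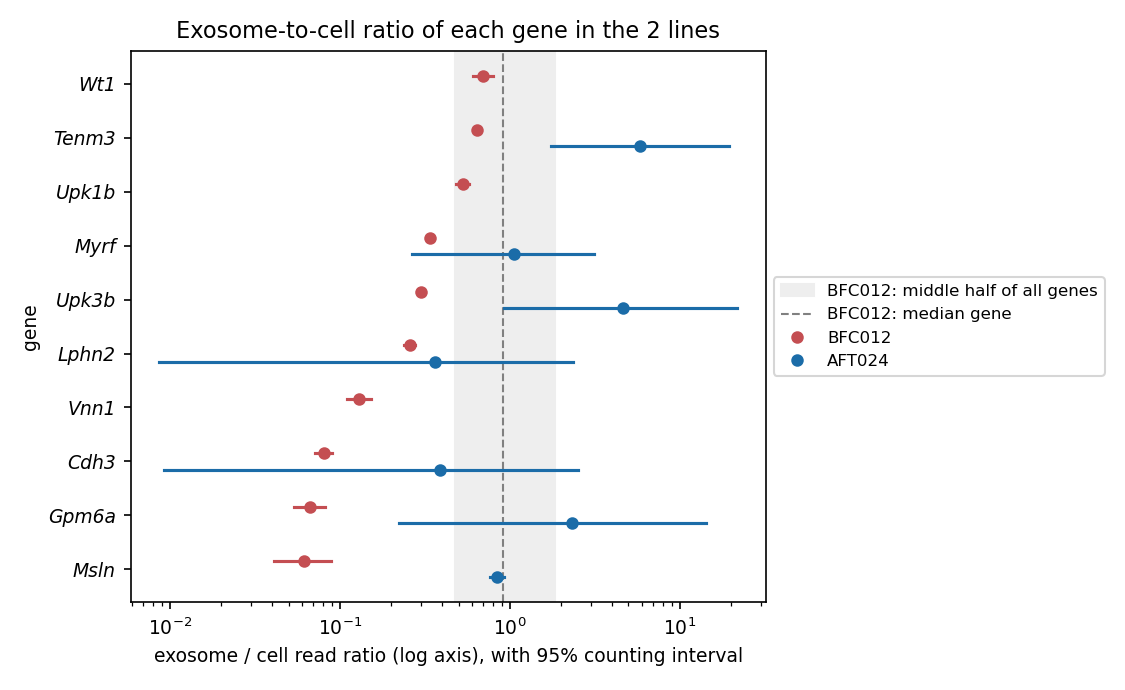
Exosome-to-cell read ratio (log axis) of each gene in BFC012 and, where reads allow, in AFT024, with 95% counting intervals as bars, the range between the quartiles of all genes in BFC012 as a grey band and their median as a dashed line. BFC012 ratios run from 0.061 (Msln) to 0.700 (Wt1), while Msln in AFT024 is at 0.844.

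The label of these genes was set against marker lists. Of 22 mesothelial markers, 5 are among the 10 genes. Of the other 17, 10 reached 1 FPKM in a group, 7 were higher in BFC012 cells and 1 was lower, beside 5.95% and 7.54% of all genes. Of these 7, 4 (Nkain4, Krt7, Krt19 and Cdh1) passed the filter only through BFC012, where they were higher, which favours a difference. Of the 6 that reached 1 FPKM in AFT024, 3 were higher in BFC012 cells and 1 was lower. The list was written with earlier results of these data known. The count leaves out 7 markers under the filter, no test was made, and nothing is read from it.

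Among those 7, Ezr (ezrin, which links membrane to actin) was at 21.8 and 80.7 FPKM in AFT024 and BFC012 cells, a read ratio of 3.66 (3.52 to 3.81). Bnc1, a zinc finger factor of mesothelium and other epithelia, was at 1.06 and 17.1 FPKM (15.9-fold by reads, 13.9 to 18.3). Nkain4 was at 0 and 10.6 FPKM, from 0 and 169 reads. Podxl, the sialomucin podocalyxin, was at 1.21 and 7.01 FPKM, and Cdh1 (E-cadherin) at 0.035 and 4.01 FPKM, from 3 and 756 reads. The keratin genes Krt7 and Krt19 were low in both lines, at 2.71 and 2.03 FPKM in BFC012 cells.

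Other markers of the list were higher in AFT024 or had few reads in any group. Alcam was 14.7-fold higher in AFT024 cells by reads (9.03 to 25.7), as was Msln at its 2.35-fold. Pdpn (podoplanin) was at 52.9 and 33.4 FPKM and Tbx18 at 6.70 and 5.46 FPKM, short of 2-fold. Calb2 (calretinin) and Aldh1a2 had 0 reads in all 4 groups, Muc16 had 1 read in all, Rspo1 had at most 3, and Krt8 and Krt18 were under 0.5 FPKM in the cells of both lines. Lrrn4, also under the filter at 0.989 FPKM in BFC012 cells, went the other way with 0, 155, 0 and 24 reads, at least 55.5-fold higher in BFC012 cells. In exosomes 3 of the 10 markers outside the described genes were higher in BFC012 and 0 lower, by FPKM, beside 15.0% and 7.14% of all genes.

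The urothelial part of the label rested on Upk1b and Upk3b. Upk2 and Upk3a had 0 reads in all 4 groups, and Upk1a was at 0.673 and 0.548 FPKM in AFT024 and BFC012 cells. Of the 15 other genes on the urothelial list, 4 reached 1 FPKM. Krt7 and Krt14 were higher in BFC012 cells, while Pparg and Gata3 were lower, beside 5.95% and 7.54% of all genes. Krt7 and Krt14 passed the filter only through BFC012 and Gata3 only through AFT024, where each was higher, so nothing is read from these counts. Pparg, a nuclear receptor of fat cells and urothelium, was 6.17-fold higher in AFT024 cells (5.58 to 6.83), at 37.4 against 6.10 FPKM, and Gata3 5.43-fold (4.39 to 6.77), at 4.08 against 0.759 FPKM. Without the described genes the list summed to 43.1 FPKM in AFT024 cells and 11.9 FPKM in BFC012 cells, mostly Pparg in AFT024 cells. With 0 reads of Upk2 and Upk3a, no urothelial label is given to the 10 genes, which are called here by their symbols. In exosomes 0 of the 4 were higher in BFC012 and 2 were lower, beside 15.0% and 7.14% of all genes.

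**Figure D4:**
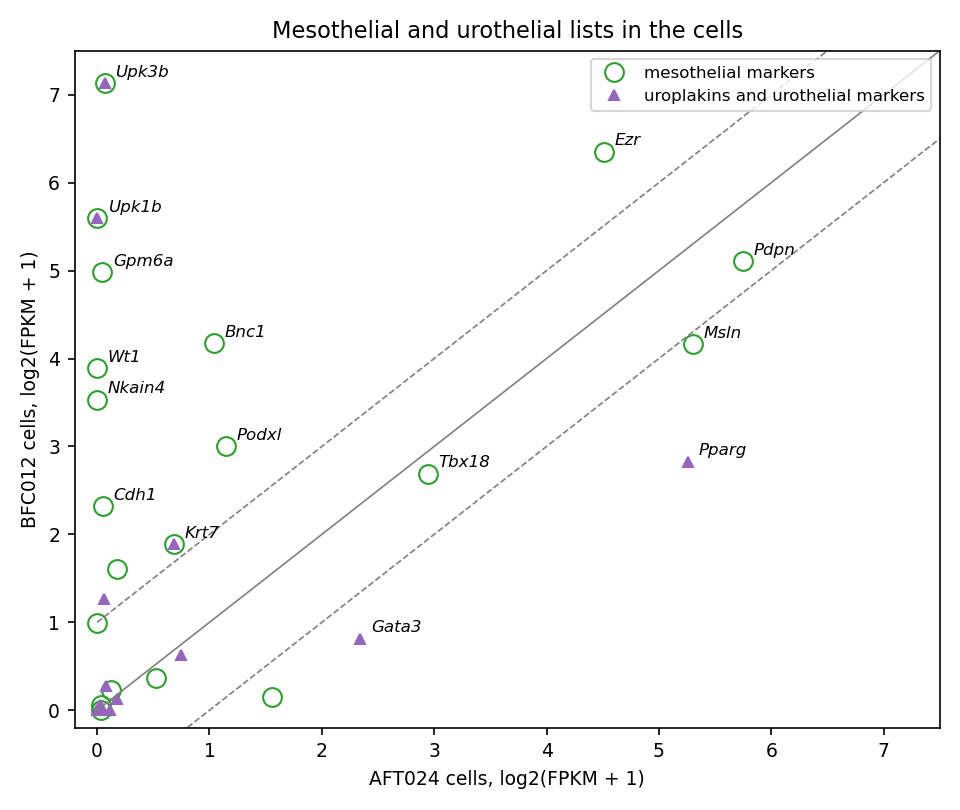
Level of each gene of the mesothelial list (circles) and urothelial list (triangles) in AFT024 cells (x axis) and BFC012 cells (y axis), both as log2(FPKM + 1), with equality as a solid line and 2-fold as dashed lines. Upk3b, Upk1b, Gpm6a, Wt1 and Nkain4 lie along the left edge. Below the line of equality lie, among others, Msln, Pdpn, Alcam and Tbx18 of the mesothelial list and Pparg and Gata3 of the urothelial list.

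Relatives of the described genes mostly differed less between the lines. Most of the described genes were chosen for a high level in BFC012 cells, so nothing is read from this. Among 11 other classical cadherins and catenins, 8 passed the filter. Of these, 2 were higher in BFC012 cells (Cdh1 and Cdh11) and 0 lower, beside 5.95% and 7.54% of all genes. Cdh1 passed the filter only through BFC012. Cdh11, a mesenchymal cadherin, was at 1.38 and 17.7 FPKM, 20.2-fold by reads (17.2 to 23.9). Cdh2 (N-cadherin) was at 23.0 and 22.8 FPKM, and the catenin gene Ctnnb1 at 172.1 and 181.5 FPKM. Ctnnb1, which encodes the adaptor that binds cadherin tails, had a read ratio of 1.04, and the chosen gene Cdh3 had 761.1.

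Of 9 other teneurin, latrophilin and FLRT genes, 3 passed the filter. By FPKM in cells 0 of them passed 2-fold, beside 5.95% of all genes higher in BFC012 and 7.54% lower. Lphn1 was at 9.69 and 11.6 FPKM and Flrt2, a latrophilin ligand, at 2.33 and 4.24 FPKM. Lphn3 was at 1.27 and 0.187 FPKM, from 251 and 4 reads. Tenm1 had 0 reads in all groups, Tenm2 at most 1 and Tenm4 at most 9, so Tenm3 supplied nearly all teneurin reads of BFC012.

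Vnn3, another vanin gene, had 0 and 20 reads in the cells. Of 9 other genes on the list of vanins and coenzyme A salvage, which also holds Btd, 8 passed the filter. By FPKM between the cells 0 of them passed 2-fold, beside the same 5.95% and 7.54% of all genes. Pank1, a pantothenate kinase, was nearest at 2.27 and 5.47 FPKM (2.32-fold by reads). The proteolipid gene Gpm6b, which has no FPKM row, had 0, 164, 2 and 2 reads. In exosomes, 2 of the 8 cadherin and catenin genes, 1 of the 3 teneurin, latrophilin and FLRT genes and 1 of the 8 genes of the vanin and coenzyme A list were higher in BFC012. Of these lists 0 genes were lower, beside 15.0% of all genes higher and 7.14% lower. Tmem98, which binds Myrf, was at 24.7 and 37.6 FPKM, and Myrfl had at most 1 read.

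Markers of other cell types were mixed. Of 10 stellate cell and pericyte markers, 3 passed the filter. Of these, 2 were lower in BFC012 cells and 0 higher, beside 7.54% and 5.95% of all genes. They were Pdgfrb at 18.4 and 8.51 FPKM and Cspg4 at 3.48 and 0.0029 FPKM. Cspg4 passed the filter only through AFT024, where it was higher, so nothing is read from the count. The list summed to 23.9 FPKM in AFT024 cells and to 9.59 FPKM in those of BFC012. Hepatoblast markers summed to 0.771 and 12.8 FPKM, of which Foxa2, an endoderm transcription factor, made up 11.7 FPKM in BFC012 cells. It passed the filter only through BFC012. Foxa2 was higher in BFC012 in cells (262.1-fold by reads, 102.1 to 964.0) and in exosomes, while Ttr had 0 reads and Alb and Hnf4a at most 6 and 2 reads in any group. Endothelial markers summed to 3.13 and 12.0 FPKM, of which the receptor gene Flt1 made up 2.72 and 11.5 FPKM. Flt1 was likewise higher in BFC012 in cells (4.16-fold by reads, 3.86 to 4.49) and in exosomes, and Lyve1 had 0 reads. Blood cell markers summed to 14.2 and 10.3 FPKM, mostly Itgam by FPKM, although it had at most 5 reads in any group, and Ptprc had at most 2. The part of these cells in the results was not tested.

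The genomic neighbours were examined after the values were seen. Of the 40 nearest genes that reached 1 FPKM, 2 on each side of each described gene, 4 were higher in BFC012 cells (10%) and 1 lower (2.5%), beside 5.95% and 7.54% of all genes. Of the higher ones, Cdh1, Smpd3 and Wt1os passed the filter only through BFC012, which favours a difference, so nothing is read from these counts. Beside Cdh3 lay both Cdh1 and Smpd3, a neutral sphingomyelinase known for its part in exosome release. Smpd3 was listed at 0 FPKM in AFT024 although it had 104, 6813, 29 and 2274 reads, 70.4-fold higher in BFC012 cells (58.0 to 86.3). Unlike Cdh3, its exosome-to-cell ratio in BFC012 was 1.04 (0.989 to 1.09). The others were B4galt4 beside Upk1b and Wt1os beside Wt1, with Rasa4 beside Upk3b 8.26-fold lower by reads in BFC012 cells.

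Genes with a pattern most like that of the 8 chosen genes were sought among 7926 others at 10 FPKM or more in BFC012 cells, less 124 listed at 0 FPKM despite reads. Likeness was the smallest sum of absolute differences from the median shares of the 4 groups, which were 0.0897%, 86.0%, 0.0752% and 13.9%. The nearest were Plac9a, Plac9b and Gm9780, at 53.4, 65.5 and 27.0 FPKM in BFC012 cells. Plac9a and Plac9b are near-identical copies with 0 reads in the read tables, so their FPKM is uncertain. That of Gm9780 is uncertain too, since it had 71 reads in BFC012 cells and was listed at 0.230 FPKM in AFT024 cells from 0 reads. Next came Gpx7, Aldh1a1, Spon2, Slit3 and Slc7a2.

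Aldh1a1, a retinaldehyde dehydrogenase, was at 0.497, 78.9, 0.316 and 10.7 FPKM, from 38, 6271, 11 and 548 reads. Slit3, a secreted guidance ligand, was at 1.37, 43.8, 0.369 and 6.36 FPKM, and Slc7a2, a transporter of basic amino acids, at 0.142, 32.1, 0.168 and 6.66 FPKM. Likeness over 4 values is a description. With shares of library-scaled reads, 5 of the 8 were again among the nearest 8.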

How the data were processed

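PolyA RNA of 8 samples was used, 2 in each of 4 groups. Per the labels' protocols, RNA was extracted with Trizol and polyA RNA was purified with oligo dT beads. The submitters' processing notes name TopHat, Cufflinks, Bowtie and mm10, with no version or role. The program that counted reads per gene is not given in the sources used here. Per gene and group, the authors deposited 1 FPKM value, and pairwise tables of reads that they had divided by a size factor, all with decimal commas. Whole read counts were recovered from these deposited columns by their smallest step. In every column 100% of values were whole within 0.01. The deposited FPKM table held 24544 genes, and 14969 reached 1 FPKM in a group. By symbol, 99.3% of these matched 1 row of the read tables. Deposited starts plus 1 equalled the start in GENCODE vM21 for 80.2% of genes, so 1 was added to starts.

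Log2 ratios were taken after adding 1 FPKM. Size factors came from 14905 genes, and intervals at 95% cover counting error only. The interval and scaling code was tested on simulated data. The 10 genes and 11 lists were chosen with earlier results of these data known. From each list the text names genes past 2-fold and at most 4 of the highest, and some at or near 0 were named after their values were seen. Alternatives were a pseudocount of 0.1, no filter, FPKM scaled by size factors, library-scaled reads with 1 added, a 4-fold threshold, and ratios relative to the median gene, chosen after seeing the data. All columns of per-sample values of polyA RNA were used (0 unused), and small RNA was not analysed here. Python 3.11.15 was used with pandas 2.3.3, numpy 2.4.6, scipy 1.17.1 and matplotlib 3.10.9.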

Additional observations from a re-analysis of the deposited data

Results flagged for a closer look

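Tenm3 is listed here because its exosome-to-cell read ratio pointed in opposite directions in the lines, 5.83 (1.75 to 19.5) in AFT024 and 0.640 (0.618 to 0.664) in BFC012. The AFT024 value rests on 7 reads in each group against 3575 and 17349 reads in BFC012. The difference between the lines was not tested, since each group has 1 merged value.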

How the results depend on the processing

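No paired analysis was possible because each group has 1 merged value, and for the same reason no sample could be left out. Across the alternatives, 85 counts stayed within 1.5 times the reported one and 11 did not. Of 200 alternative log2 differences of single genes, the 150 whose reported difference passed 2-fold kept their sign. Of the other 50, 8 changed sign, all in AFT024 exosomes against cells (Cdh3, Myrf, Gpm6a, Vnn1 and Lphn2). Of the 200, 55 moved by more than the half-width of their counting interval on the log2 scale. At 4-fold, 0 of the 10 genes were lower in BFC012 than in AFT024 cells and 0 lower in AFT024 exosomes than in cells, where 3.03% and 25.5% of all genes were. The latter count, 1 as reported (Msln), was also 0 with FPKM scaled by median-of-ratios, with library-scaled reads and relative to the median gene, where 24.3%, 27.8% and 22.5% of all genes were. Relative to the median gene 9 of the 10 were higher in AFT024 exosomes than in cells, as were 23.9% of all genes, by construction, because these 9 lie under 0.1 FPKM in both groups and the median gene fell by 1.11. With library-scaled reads, 1 teneurin or latrophilin gene was lower in BFC012, in cells and in exosomes (0 by FPKM), where 6.15% and 8.89% of all genes were. Counting the described genes, 2 coenzyme A genes were higher in BFC012 cells (Vnn1 and Pank1, against Vnn1 alone by FPKM), where 4.70% of all genes were, and 1 proteolipid gene (Gpm6a) in BFC012 exosomes (0 by FPKM), where 8.38% were. The genes most like the chosen ones shared 5 of 8 names when library-scaled reads were used; the cause was not tested for these counts. In AFT024 exosomes the genes other than Msln had 0 to 7 reads, so depth limits their ratios between the lines.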
